A study of Mus musculus with 3072 samples.

Results

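The 10 genes described here encode enzymes that remove superoxide and peroxides: the peroxiredoxins Prdx1, Prdx2, Prdx3, Prdx4, Prdx5 and Prdx6, the catalase gene Cat, the glutathione peroxidase gene Gpx1, and the superoxide dismutase genes Sod1 and Sod2. They were chosen by symbol, with earlier results of these data known, so shares over all genes stand beside their counts as a description only. All 10 were found among the 55291 gene symbols of the count matrix. Each passed the filter on low counts in every comparison below. The largest differences lay between sorted populations: Prdx2 was 6.35-fold and Prdx3 4.63-fold higher in cells labelled CFU than in cells labelled HSC, while Prdx5 was lower there. No member passed the test between platelet-depleted and control mice in the main test.

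Superoxide dismutases convert superoxide, a by-product of respiration and of oxidases, into hydrogen peroxide. Catalase, glutathione peroxidases and peroxiredoxins then remove the peroxide. Most peroxiredoxins are returned to their active form by thioredoxin, whose own reducing power comes from NADPH. In red blood cells, which carry much oxygen and iron, Prdx2 is among the most abundant proteins, and mice without it develop hemolytic anemia.

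Single cells were sorted from the bone marrow of WT C57BL/6 mice that had received barcoded stem cells by transplantation, and were profiled by Smart-seq2, which amplifies whole transcripts and has no molecular identifiers. The labels name the sorted populations HSC, MkP and CFU without writing the names out. The 4 control mice were sampled at week 32 and the 4 platelet-depleted mice at week 28 after transplantation, so treatment, week and experiment cannot be told apart; the agent used is not given in the sources used here. Each mouse was identified by the leading code of the sample titles, and counts of the cells of a mouse and population were added together, which gave 24 sums, 8 per population. The titles also number the wells in blocks, and all wells of a block carry the same mouse and population. Block and population therefore cannot be told apart.

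The 2668 wells kept of 3069 comprised 328 control and 369 depleted HSC, 644 control and 680 depleted MkP, and 300 control and 347 depleted CFU. The sums held 68792249 to 327869432 counts. Levels are given as CPM, counts scaled to equal library size with TMM factors. On this scale, 7 erythroid markers led by Car2 summed to between 13374 and 18399 CPM in CFU and to at most 2514 CPM in HSC and 1826 CPM in MkP. The 7 megakaryocyte markers summed to between 3226 and 5567 CPM in MkP, to 1196 to 1739 CPM in HSC and to 11.4 to 29.1 CPM in CFU. The 7 HSC markers, led by Meis1, reached 1003 to 1539 CPM in HSC, 463 to 567 CPM in MkP and at most 13.8 CPM in CFU. Markers of other cells were uneven between mice: 5 myeloid markers summed to between 1034.5 and 1291 CPM in the CFU of 4 mice and to at most 10.3 CPM in the other 4, and 5 neutrophil markers stood at 3740.5 CPM in the CFU of control mouse 3 against at most 120.1 CPM in the other CFU sums. In MkP, 5 mast cell and basophil markers reached 816 CPM in depleted mouse 2, while the remaining 7 sums lay between 47.8 and 111 CPM. Other single sums that stood apart were HSC of depleted mouse 4 for neutrophil markers (410.5 CPM, others at most 6.88 CPM) and MkP of control mouse 2 for myeloid markers (341 CPM, others at most 114 CPM). In CFU of depleted mouse 2, B cell markers stood at 105 CPM (others at most 2.76 CPM) and lymphoid progenitor markers at 60.7 CPM (others at most 0.757 CPM).

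Promoter windows of 9 members were matched by symbol in RefSeq (GRCm38.p6): all but Prdx6. The 250 bases before the annotated start are printed for Prdx2 and Prdx3, which rose most in CFU, for Prdx5, which fell there, and for Prdx1, a member with a letter match to the antioxidant response element (ARE). Capitals mark matches, on either strand, to the letters CACCC of the CACCC box, bound by Klf1-type factors, and to TGACNNNGC, the core of the ARE that Nrf2 binds. Overlapping and adjoining matches run together.
Prdx2: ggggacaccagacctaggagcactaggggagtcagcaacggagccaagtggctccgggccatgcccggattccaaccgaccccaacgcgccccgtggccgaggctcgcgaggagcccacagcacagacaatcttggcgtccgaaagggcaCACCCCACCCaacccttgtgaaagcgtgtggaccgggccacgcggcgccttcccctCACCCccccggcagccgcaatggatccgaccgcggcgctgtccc
Prdx3: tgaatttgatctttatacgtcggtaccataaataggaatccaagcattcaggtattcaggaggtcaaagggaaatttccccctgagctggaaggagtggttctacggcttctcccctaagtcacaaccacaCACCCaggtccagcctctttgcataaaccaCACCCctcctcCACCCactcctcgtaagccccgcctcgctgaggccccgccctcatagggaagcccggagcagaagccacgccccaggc
Prdx5: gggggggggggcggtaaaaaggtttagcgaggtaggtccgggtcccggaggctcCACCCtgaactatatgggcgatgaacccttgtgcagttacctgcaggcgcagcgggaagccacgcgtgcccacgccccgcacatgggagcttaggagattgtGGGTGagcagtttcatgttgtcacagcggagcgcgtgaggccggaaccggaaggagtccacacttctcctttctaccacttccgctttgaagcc
Prdx1: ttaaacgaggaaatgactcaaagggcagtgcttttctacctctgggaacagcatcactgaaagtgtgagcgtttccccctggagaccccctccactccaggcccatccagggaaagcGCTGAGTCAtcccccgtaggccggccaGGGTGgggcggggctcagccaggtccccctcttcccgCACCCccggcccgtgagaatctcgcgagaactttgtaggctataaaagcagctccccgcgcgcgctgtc

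These windows lie at chr8:84969372-84969621 on the plus strand (Prdx2), chr19:60874539-60874788 on the minus strand (Prdx3), chr19:6910107-6910356 on the minus strand (Prdx5) and chr4:116685349-116685598 on the plus strand (Prdx1). The Prdx2 window held 3 CACCC matches, at 100, 95 and 44 bases before the start, and the Prdx3 window also held 3. Of the 9 windows, 6 held at least 1 CACCC match, beside 52% of the 32851 mouse promoter windows of the same length. The ARE letters were found in the windows of Prdx1, 133 bases before the start, and Sod1, 56 bases before it, both on the opposite strand, against 10.2% of all windows. The GATA letters AGATAA were in 0 of the 9 windows and in 9.99% of all windows. CACCC letters were present in members that were higher in CFU and in Prdx5, which was lower. They were absent from the windows of Gpx1, Sod1 and Sod2, which were higher. Any part of these letters in the levels was not tested.

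The populations were compared over 8 mice each in a fit of all 24 sums with edgeR's quasi-likelihood test and Benjamini-Hochberg adjustment over 20852 genes. Of the 10 members, 8 were higher in CFU than in HSC, where 27.7% of all genes tested were called higher, and 1 was lower, where 35.8% were called lower. The members' median log2 fold change was 1.06, beside -0.27 over all genes tested. Genes of low count are seldom called, and all members stood above 8 CPM. Among the 9445 genes of at least 8 CPM, 81.4% were called, 3718 higher and 3974 lower, with a median of -0.05. All 10 members were called in that fit. In 9 members the 8 CFU values did not overlap the 8 HSC values, as in 33.8% of all genes. All of these 9 kept their direction and call under each of the 19 alternatives run on this comparison.

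Prdx2, the cytosolic peroxiredoxin abundant in red cells, ranged from 292 to 389 CPM over the 8 HSC sums with a median of 337 CPM. In CFU it ranged from 1902 to 2440 CPM with a median of 2176 CPM. In MkP it ranged from 332 to 418 CPM with a median of 355 CPM. HSC and MkP thus overlapped for Prdx2, while every CFU value stood above both. Its log2 fold change was 2.67 ± 0.06 (SE) in CFU against HSC (edgeR adjusted p = 2.55e-19) and 2.59 ± 0.06 in CFU against MkP (edgeR adjusted p = 4.72e-19), but 0.08 ± 0.06 in MkP against HSC (edgeR adjusted p = 0.343).

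Prdx3, the peroxiredoxin of the mitochondrial matrix, rose next most. Its 8 sums ran from 115 to 167 CPM in HSC (median 137 CPM), from 157 to 203 CPM in MkP (median 192 CPM) and from 582 to 699 CPM in CFU (median 646 CPM). The log2 fold change was 2.21 ± 0.07 in CFU against HSC (edgeR adjusted p = 7.73e-17) and 0.43 ± 0.07 in MkP against HSC (edgeR adjusted p = 5.54e-05). All 3 populations differed by the test for Prdx3, although the ranges of MkP and HSC overlapped.

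Prdx1, another cytosolic peroxiredoxin, was higher in both progenitor populations. It ran from 300.4 to 439.6 CPM in HSC (median 351 CPM), from 489 to 626 CPM in MkP (median 563 CPM) and from 525 to 676 CPM in CFU (median 601 CPM). Neither progenitor range overlapped the HSC range. The log2 fold changes against HSC were 0.62 ± 0.07 for MkP (edgeR adjusted p = 9.13e-07) and 0.71 ± 0.07 for CFU (edgeR adjusted p = 1.08e-08). The progenitors did not differ from each other beyond their spread (log2 0.09 ± 0.07, edgeR adjusted p = 0.295), and this small difference changed sign among genes of at least 8 CPM (-0.05) and with cells thinned to equal depth (-0.03).

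Prdx4, the peroxiredoxin of the endoplasmic reticulum, ran from 54.7 to 93.6 CPM in HSC (median 65.3 CPM), from 66.5 to 95.4 CPM in MkP (median 73.7 CPM) and from 93.7 to 137.5 CPM in CFU (median 113 CPM). CFU was higher than HSC by log2 0.76 ± 0.10 (edgeR adjusted p = 4.96e-07) and higher than MkP by 0.56 ± 0.10 (edgeR adjusted p = 4.98e-05). With GC and length trends removed these were 0.30 (edgeR adjusted p = 0.0172) and 0.29 (edgeR adjusted p = 0.0259). MkP and HSC overlapped and did not pass the test (log2 0.20 ± 0.10, edgeR adjusted p = 0.132); without control mouse 3 this difference was 0.29 (edgeR adjusted p = 0.037).

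Prdx5, which is found in mitochondria, peroxisomes and the cytosol, went the other way. It ran from 102 to 121 CPM in HSC (median 111 CPM), from 80.4 to 88.7 CPM in MkP (median 84.2 CPM) and from 58.2 to 91.9 CPM in CFU (median 64.6 CPM). HSC stood above every MkP and CFU value, and CFU and MkP overlapped through 1 CFU sum, that of control mouse 3. This sum also held 3740.5 CPM of neutrophil markers, whose part was not tested. The log2 fold change against HSC was -0.70 ± 0.08 for CFU (edgeR adjusted p = 2.46e-08) and -0.39 ± 0.08 for MkP (edgeR adjusted p = 0.000324), and CFU differed from MkP by -0.31 ± 0.08 (edgeR adjusted p = 0.00145), or by -0.20 with GC and length trends removed. Without control mouse 3 the difference between CFU and HSC was -0.78.

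Prdx6, which uses glutathione and also has phospholipase activity, ran from 613 to 806 CPM in HSC (median 757 CPM), from 600.4 to 709.5 CPM in MkP (median 664 CPM) and from 1070.2 to 1650.1 CPM in CFU (median 1336 CPM). The CFU values stood above all others, with a log2 fold change of 0.87 ± 0.07 against HSC (edgeR adjusted p = 2.79e-10) and 1.02 ± 0.07 against MkP (edgeR adjusted p = 3.68e-11). MkP against HSC was -0.15 ± 0.07 (edgeR adjusted p = 0.123). This last difference passed the test in 4 alternatives, among them DESeq2 (log2 -0.23, adjusted p = 0.0107).

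Gpx1, the selenium-dependent cytosolic glutathione peroxidase, ran from 699.7 to 1223 CPM in HSC (median 919 CPM), from 974 to 1245 CPM in MkP (median 1069 CPM) and from 2139 to 2419 CPM in CFU (median 2196 CPM). CFU stood above both by log2 1.25 ± 0.08 against HSC (edgeR adjusted p = 1.29e-12) and 1.02 ± 0.08 against MkP (edgeR adjusted p = 8.13e-11). The difference of MkP from HSC was 0.23 ± 0.08 (edgeR adjusted p = 0.0253), with overlapping ranges. That call ended without control mouse 1 or 3 or any single depleted mouse, at an adjusted p of 0.0506 to 0.0681, and in 4 further alternatives, DESeq2 among them (adjusted p = 0.13).

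Cat, the peroxisomal catalase, was the member that differed least. It ran from 132 to 188 CPM in HSC (median 156 CPM), from 112 to 156 CPM in MkP (median 132 CPM) and from 125 to 187 CPM in CFU (median 150.5 CPM), so that all 3 ranges overlapped. CFU against HSC was log2 -0.06 ± 0.08 (edgeR adjusted p = 0.559) and CFU against MkP 0.16 ± 0.08 (edgeR adjusted p = 0.108). Cat was called lower in CFU than in HSC among genes of at least 8 CPM (-0.27, edgeR adjusted p = 0.00275) and with cells thinned, and higher in CFU than in MkP in a fit of these populations alone (0.16, edgeR adjusted p = 0.0385). MkP against HSC was -0.22 ± 0.08 and passed narrowly (edgeR adjusted p = 0.0488). That call ended when any single control mouse, or depleted mouse 1 or 2, was left out, at an adjusted p of 0.0585 to 0.138, and in 2 further alternatives, such as a fit of these 2 populations alone (adjusted p = 0.0693).

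Sod1, the cytosolic copper-zinc superoxide dismutase, ran from 341 to 680.3 CPM in HSC (median 437 CPM), from 484 to 845 CPM in MkP (median 536 CPM) and from 894 to 1737 CPM in CFU (median 1108 CPM). CFU stood above both others, by log2 1.38 ± 0.12 against HSC (edgeR adjusted p = 5.63e-10) and 0.98 ± 0.12 against MkP (edgeR adjusted p = 2.04e-07). MkP was higher than HSC by 0.39 ± 0.12 (edgeR adjusted p = 0.0135), with overlapping ranges. Its standard error was the largest of the 10 members in this comparison of 3 populations.

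Sod2, the manganese enzyme of mitochondria, was graded over the populations with no overlap. It ran from 98.0 to 137.5 CPM in HSC (median 115 CPM), from 146 to 169 CPM in MkP (median 158 CPM) and from 279 to 330.2 CPM in CFU (median 303 CPM). The log2 fold change was 1.39 ± 0.06 in CFU against HSC (edgeR adjusted p = 4.35e-15), 0.43 ± 0.06 in MkP against HSC (edgeR adjusted p = 6.13e-06) and 0.95 ± 0.06 in CFU against MkP (edgeR adjusted p = 4.68e-12).

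**Figure D1:**
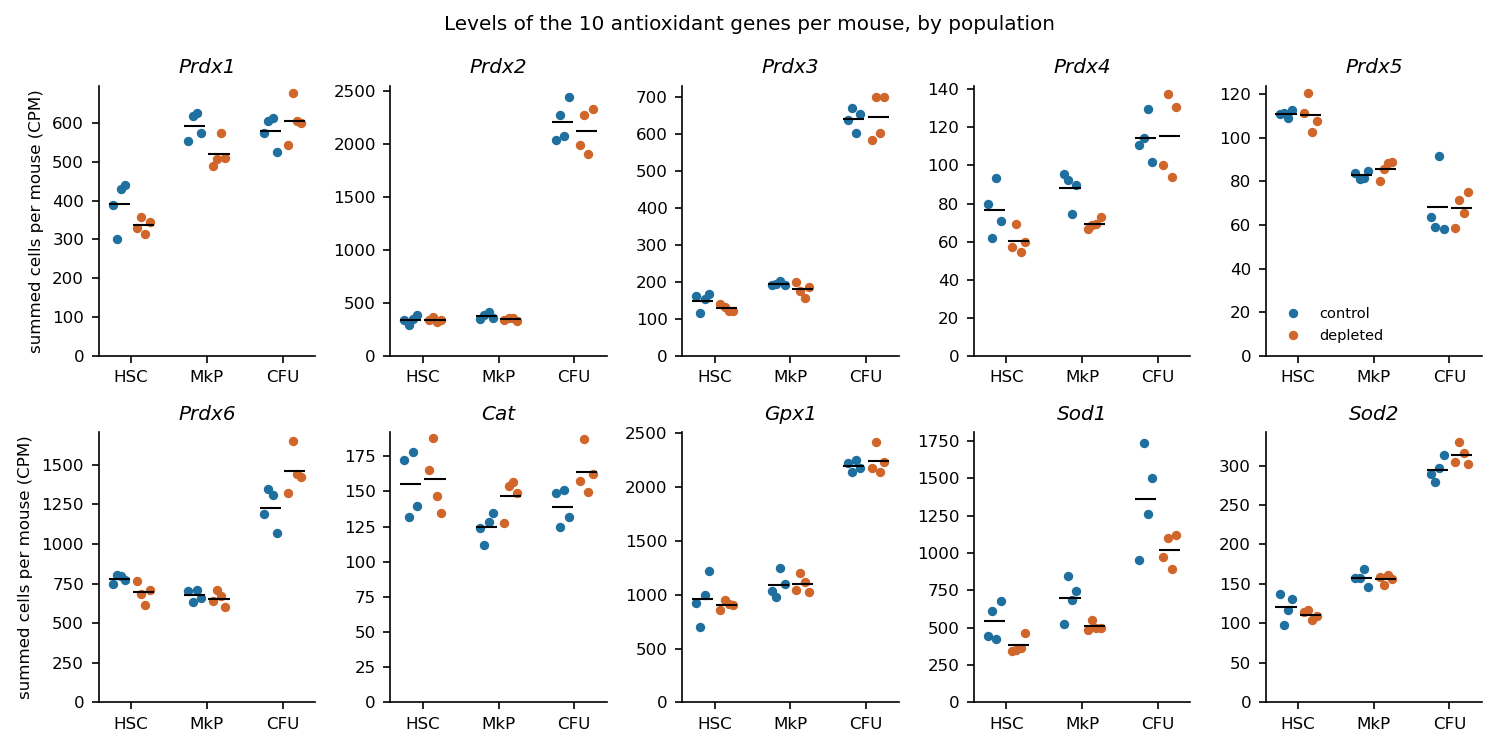
Level of each member in CPM after TMM scaling (linear axes from 0) for HSC, MkP and CFU; each point is the summed cells of 1 mouse, 4 control and 4 depleted, and bars are means of 4. The CFU points of Prdx2 (1902 to 2440 CPM) stand apart from those of HSC and MkP, the Prdx5 points are highest in HSC, and the Cat points overlap.

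Counted over comparisons, 5 members were higher in MkP than in HSC (16.8% of all genes were) and 2 were lower (13.1% were), with a members' median log2 fold change of 0.22 beside 0.01 over all genes. Between CFU and MkP, 7 members were higher in CFU (22.3% of all genes were) and 1, Prdx5, was lower (31.1% were), with a median of 0.97 beside -0.25. The 8 sums of each population did not overlap for 3 members between MkP and HSC (11.4% of all genes) and for 6 between CFU and MkP (28.4%). Among genes of at least 8 CPM, 50.6% were called between MkP and HSC (median log2 0.00) and 74% between CFU and MkP (median -0.05). The 3 comparisons share their sums, so they are not independent of each other. The log2 values depend on the scaling in a common way: with DESeq2 size factors the median of all genes in CFU against HSC stood at -0.38 in place of -0.27.

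**Figure D2:**
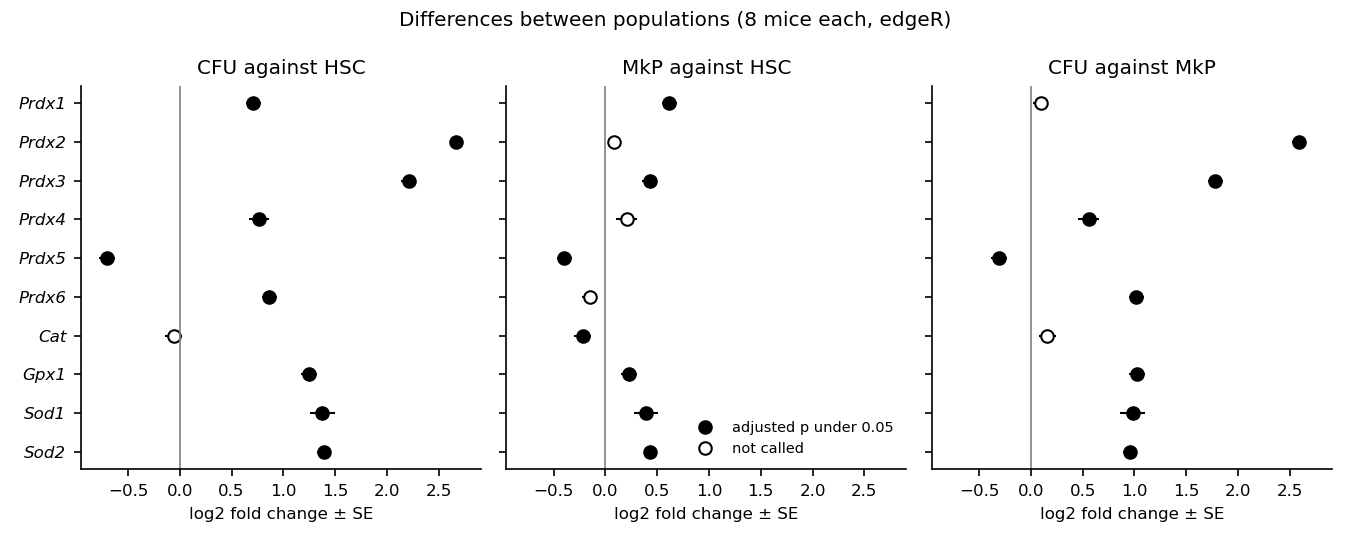
Log2 fold change with its standard error for each member in the 3 comparisons of populations (edgeR, 8 mice each); filled points have an adjusted p under 0.05. Prdx2 and Prdx3 stand farthest to the right in both comparisons with CFU, Prdx5 is left of 0 in all 3, and the MkP against HSC values lie within -0.39 and 0.62.

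Levels of different genes were compared only per length, as CPM per kb of the union of annotated exons. On that scale Gpx1 was the most abundant member in all 3 populations, at 648 ± 101 CPM per kb in HSC, 758 ± 64 in MkP and 1539 ± 63 in CFU (SD, n = 8). Prdx2 was second in CFU at 710.1 ± 62 CPM per kb, followed by Prdx3 at 435 ± 31. In HSC the next after Gpx1 was Prdx6 at 153 ± 14 CPM per kb, with Prdx1 at 119 ± 17, Sod1 at 116 ± 31 and Prdx2 at 112 ± 9, which differ by less than their spread. Sod2 was lowest in all 3 populations, at 11.6 ± 1.3 CPM per kb in HSC, 15.7 ± 0.7 in MkP and 30.4 ± 1.6 in CFU; in CFU Prdx5, at 31.8 ± 5.4, lay within its spread of it. The exon unions ran from 1441 bases in Gpx1 to 10008 in Sod2, with 3970 in Sod1 and 1478 in Prdx3. The places of all members therefore depend on the length used, and no other length was used for this order. Before length scaling, the mean in CFU was 1192 CPM for Sod1 and 643 CPM for Prdx3.

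The summed level of the 6 peroxiredoxin genes was 563 ± 49 CPM per kb in HSC, 643 ± 34 in MkP and 1706 ± 111 in CFU (SD, n = 8). Within that sum Prdx2 made up 19.9% ± 1.3 in HSC, 18.4% ± 0.7 in MkP and 41.6% ± 2.4 in CFU. The Prdx2 share was 21.7 percentage points higher in CFU than in HSC and 23.2 points higher than in MkP, in 8 of 8 mice both times (exact two-sided sign-flip test, adjusted p = 0.00879 over 18 tests; its smallest possible raw p is 0.00781). Prdx3 also took a larger share in CFU, 25.5% ± 0.7 against 16.7% ± 1.2 in HSC, in 8 of 8 mice (exact adjusted p = 0.00879).

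The other 4 peroxiredoxins took smaller shares in CFU. Prdx6 led in HSC with 27.3% ± 2.3 of the sum and made up 21.5% ± 1.2 in MkP and 16.4% ± 1.8 in CFU. Prdx1 led in MkP with 28.4% ± 1.5, against 21.1% ± 1.4 in HSC and 11.4% ± 0.7 in CFU. Before length scaling, Prdx6 stood above Prdx1 in MkP, at a mean of 664 against 556 CPM. Prdx5 fell from 9.24% ± 0.73 in HSC to 6.15% ± 0.48 in MkP and 1.87% ± 0.32 in CFU, and Prdx4 from 5.73% ± 0.73 in HSC to 3.19% ± 0.32 in CFU, each in 8 of 8 mice (exact adjusted p = 0.00879). A share can fall while the level rises, as for Prdx1, Prdx4 and Prdx6 in CFU. Between MkP and HSC, the Prdx2 share differed by -1.50 points, lower in 6 of 8 mice (exact adjusted p = 0.0414), but this call ended without control mouse 1 or 4 or any single depleted mouse (exact adjusted p of 0.0662 to 0.0827). It also ended with the longest transcript as the length (-1.16 points, exact adjusted p = 0.124) and with no length scaling (-0.74 points, exact adjusted p = 0.273).

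**Figure D3:**
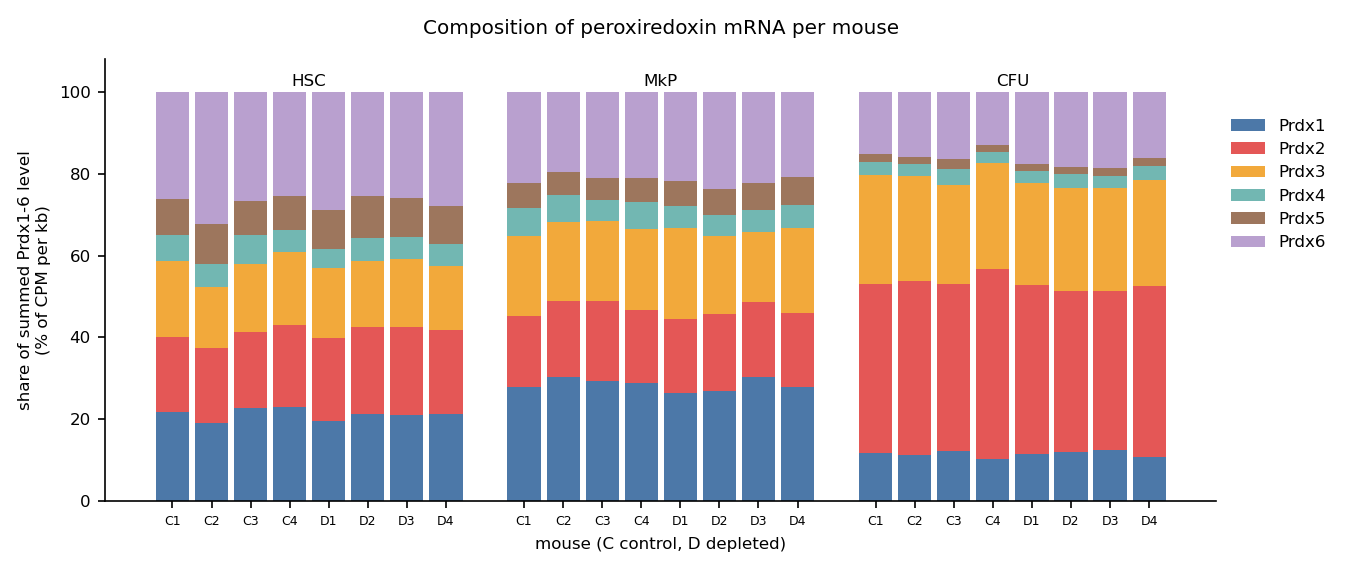
Share of each peroxiredoxin gene in the summed level of all 6 (percent of CPM per kb, bars stacked to 100) for every mouse in HSC, MkP and CFU; C marks control and D depleted mice. The Prdx2 band widens from 19.9% in HSC and 18.4% in MkP to 41.6% in CFU, while the Prdx1 band is widest in MkP and the Prdx6 band in HSC.

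Detection in single cells was compared after thinning every cell to 20000 counts, which removes differences in depth. All kept cells reached that depth. At 20000 counts, Gpx1 was found in 99.9% of HSC, 99.8% of MkP and 100% of CFU, and Sod1 in 99.6%, 99.8% and 100%, so these genes were near the ceiling. Before thinning both were found in at least 99.9% of cells of every population. Prdx6 was likewise found in 98.1% of HSC, 98.1% of MkP and 99.4% of CFU.

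Genes of lower level showed wider differences in detection. Prdx3 was found in 67.6% ± 6.5 of HSC, 77.6% ± 4.4 of MkP and 98.6% ± 1.6 of CFU (SD, n = 8 mice). Sod2 was found in 68.1% ± 4.7 of HSC, 80.8% ± 5.3 of MkP and 95.7% ± 1.8 of CFU. For both genes all 3 pairs of populations differed in 8 of 8 mice (exact two-sided sign-flip test, adjusted p = 0.0167 over 30 tests).

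Prdx5 again ran the other way, with 76.6% ± 1.4 of HSC, 67.5% ± 3.4 of MkP and 58.1% ± 5.0 of CFU, lower in 8 of 8 mice in each step (exact adjusted p = 0.0167). Without thinning, Prdx5 had a count in 93.6% of HSC and 99.1% of CFU, the reverse order, at a median of 2306232 counts per cell in control CFU and 1319672 in control HSC. Prdx4 was found in 47.9% ± 6.9 of HSC, 53.3% ± 7.0 of MkP and 78.2% ± 5.7 of CFU, and CFU differed from both others in 8 of 8 mice (exact adjusted p = 0.0167). In all, 16 of the 30 comparisons of detection passed the test. The share of all genes that would pass it was not computed, so this count has no background beside it.

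Cat differed in detection while its summed level did not pass the main test. It was found in 65% ± 4.5 of HSC and 65% ± 5.5 of MkP but in 82.9% ± 4.4 of CFU, higher in 8 of 8 mice (exact adjusted p = 0.0167). Its counts were spread more evenly over CFU: the top 10% of cells held 27% of the Cat counts in CFU, 37.1% in HSC and 36.5% in MkP. The median cell held 141 CPM of Cat in HSC and 113 CPM in CFU, and the cell at the 90th percentile 451 CPM in HSC and 231 CPM in CFU. With each cell thinned to the same depth before summing, Cat was lower in CFU than in HSC (log2 -0.28, edgeR adjusted p = 0.00855), the call also made among genes of at least 8 CPM.

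**Figure D4:**
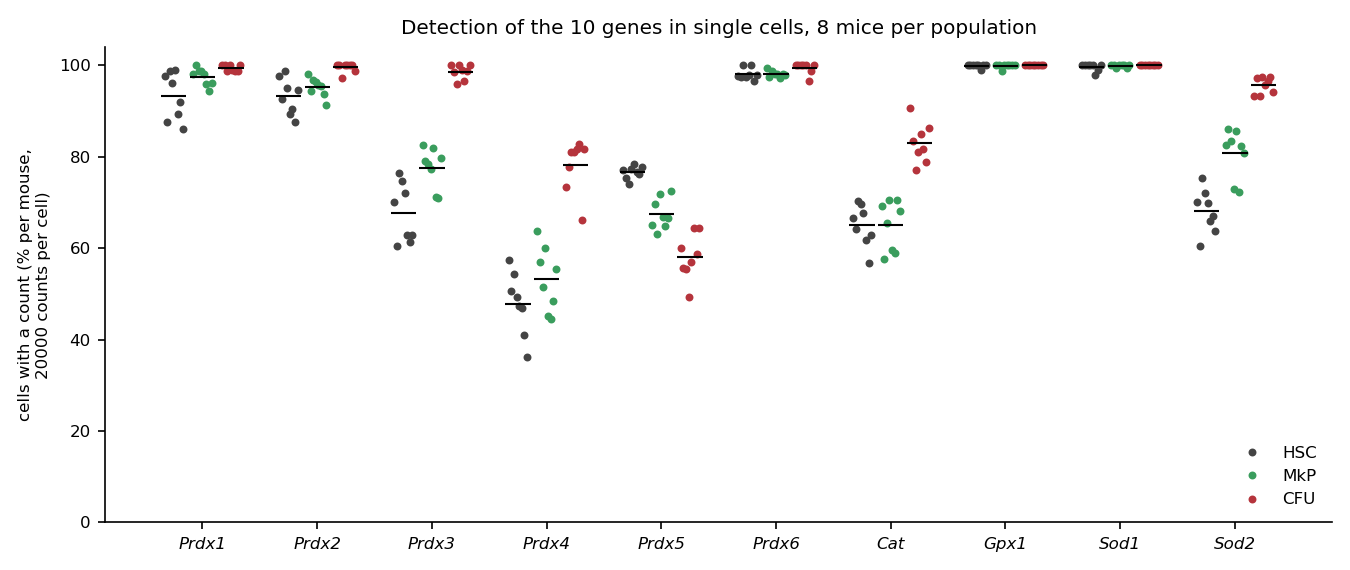
Percentage of cells with at least 1 count of each member after thinning every cell to 20000 counts; each point is 1 of 8 mice and bars are means. Gpx1 and Sod1 are near 100% everywhere, Prdx3, Prdx4, Sod2 and Cat are detected most often in CFU, and Prdx5 least often in CFU (58.1%).

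The coefficient of variation between single cells, without thinning, was smallest in CFU for 9 of the 10 members. The share of all genes for which this holds was not computed, so it cannot be read as particular to the members. The coefficient of variation of Prdx2 CPM over cells was 0.66 in HSC, 0.61 in MkP and 0.40 in CFU, and that of Prdx3 was 0.94, 0.80 and 0.36. Prdx5 was the exception, at 0.73 in HSC, 0.79 in MkP and 1.44 in CFU, where its median cell held 49.3 CPM. Its other measures of spread went the opposite way: the top 10% of cells held 27.2% of the Prdx5 counts in CFU, 29.8% in HSC and 30.6% in MkP, and the 10th to 90th percentile ran from 20.8 to 93.9 CPM in CFU and from 13.5 to 242 CPM in HSC. These coefficients include counting noise, which is larger for genes of lower level and in shallower cells. CFU cells were the deepest, with a median of 2306232 counts in control CFU against 1319672 in control HSC and 1469625.5 in control MkP.

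Across the 647 CFU cells, thinned to equal depth, Prdx2 counts correlated with those of Gpx1 (Spearman's rho = 0.44) and inversely with those of Prdx6 (rho = -0.41), and Prdx6 correlated inversely with Gpx1 (rho = -0.32). Across 1324 MkP cells, Gpx1 correlated inversely with the summed megakaryocyte markers (rho = -0.43) and positively with the summed erythroid markers (rho = 0.32). These are descriptions over cells of 8 mice, pooled without regard to mouse or to block of wells. Thinned counts of a cell also sum to a fixed total. The next pair of members by size was Prdx2 with Sod1 in CFU (rho = 0.28).

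The genes whose pattern over the 24 sums was most like that of a member were ranked by Pearson's r of log2 CPM, as a description. For Prdx2 they were Adamts13 (r = 0.994), C1qtnf12 (r = 0.992) and Mgst3 (r = 0.992). C1qtnf12 stood at 32.1 CPM in HSC, 43.7 CPM in MkP and 1197 CPM in CFU. Adamts13 was near the floor, at 0.00979 CPM in HSC, 0.0117 CPM in MkP and 2.14 CPM in CFU. For Gpx1 they were Alad (r = 0.990), an enzyme of heme synthesis, Taldo1 (r = 0.988) of the pentose phosphate pathway, and Rabggtb (r = 0.985). For Prdx3 they were Txnl1 (r = 0.991), Psmd9 (r = 0.991) and Cs (r = 0.990), the citrate synthase gene, and for Sod2 they were Phb2 (r = 0.994), Mrpl28 (r = 0.993) and Asf1a (r = 0.991). With only 3 populations, many genes that differ between CFU and the rest give a high r.

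Prdx1 was most like Sumo2 (r = 0.969), Txn1 (r = 0.959), the cytosolic thioredoxin gene, and Prim1 (r = 0.955). Prdx5 was most like Ptafr (r = 0.959), Alcam (r = 0.952) and Myl10 (r = 0.950), each over 30 CPM in HSC and under 1 CPM in CFU. Prdx6 was most like Gstm5 (r = 0.967), a glutathione transferase gene, Uap1 (r = 0.966) and Svbp (r = 0.958). Sod1 was most like Ubl5 (r = 0.963), Cox7a2 (r = 0.952) and Swi5 (r = 0.952), and Prdx4 like Rpl35a-ps2 (r = 0.928), Impdh2 (r = 0.924) and Rack1 (r = 0.923). Rpl35a-ps2 was of low level, at 0.482 CPM in HSC, 0.664 CPM in MkP and 1.28 CPM in CFU. Cat had no close match: Colgalt1 (r = 0.756), Slc7a4 (r = 0.747) and Slc25a4 (r = 0.735). Among the members themselves, Prdx2 was most like Prdx3 (r = 0.981) and Prdx3 most like Sod2 (r = 0.983).

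The genes around these enzymes were followed in 6 lists of 63 genes in all. The list counts below stand beside 63.5% of all genes called between CFU and HSC and 29.9% between MkP and HSC. Among genes of at least 8 CPM these shares were 81.4% and 50.6%, so the counts are a description only. Of the 9 thioredoxin system genes, 5 were higher and 2 lower in CFU than in HSC by edgeR. Txnrd2, the mitochondrial thioredoxin reductase gene, went from 41.4 CPM in HSC to 194 CPM in CFU (log2 2.26 ± 0.16), and Txnl1 from 155 to 540.5 CPM (1.81 ± 0.07). Txnip, which binds and inhibits thioredoxin, fell from 1424 to 133 CPM (-3.43 ± 0.18), and Srxn1, the sulfiredoxin that repairs over-oxidized peroxiredoxins, from 25.95 to 8.30 CPM (-1.65 ± 0.29). In MkP against HSC, 2 of the 9 were higher, Txn1 (log2 0.56 ± 0.08) and Txnl1 (0.34 ± 0.07), and 2 lower, Txnip (-1.34 ± 0.17) and Srxn1 (-1.26 ± 0.29).

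All 15 glutathione system genes differed between CFU and HSC, 9 higher and 6 lower. Glrx5, a mitochondrial glutaredoxin for iron-sulfur clusters, went from 33.3 CPM in HSC to 350.3 CPM in CFU (log2 3.38 ± 0.21), and Gclc, the catalytic subunit of glutathione synthesis, from 12.5 to 52.1 CPM (2.09 ± 0.18). Gpx7 fell from 9.32 to 0.102 CPM (-7.04 ± 1.17). Ggt1 had no count in the CFU sums and 701 counts in the HSC sums, which makes it at least 368-fold lower in CFU when the limit is set at 3 counts over the group. In MkP, Gpx4, which reduces lipid peroxides, was higher than in HSC (log2 0.53 ± 0.06) and Gpx3 was lower (-4.10 ± 1.13), within 3 higher and 2 lower of 15.

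The list named NADPH supply held 9 genes, not all of which make NADPH themselves. Of these, 5 were higher and 4 lower in CFU than in HSC. Me2 went from 61.5 to 279 CPM (log2 2.18 ± 0.13) and Taldo1 from 259.7 to 829.9 CPM (1.67 ± 0.10), while Me1 fell from 3.61 to 0.0660 CPM (-5.75 ± 1.24). Of 12 Nrf2 and stress regulator genes, 4 were higher and 6 lower: Nqo1, a quinone reductase, went from 16.9 to 57.8 CPM (1.78 ± 0.16), and Hmox1, the inducible heme oxygenase, from 49.6 to 3.41 CPM (-4.21 ± 0.69). Of the 8 superoxide source genes, 7 were tested and 5 were lower in CFU, with none higher: Nox4, an NADPH oxidase gene, had no count in CFU against 1283 counts in HSC, at least 674-fold lower. In MkP against HSC edgeR called 0 of these 7, with 1, Rac2, at an unadjusted p under 0.05 (38.8% of all genes).

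Of 10 repair and other enzymes, 9 were tested, and 4 were higher and 3 lower in CFU than in HSC. Sephs2, which makes the selenium donor for selenoproteins such as Gpx1, went from 62.5 to 181 CPM (log2 1.52 ± 0.11), and Msra, a methionine sulfoxide reductase, fell from 84.4 to 25.7 CPM (-1.72 ± 0.10). Over all 6 lists, 53 of 61 genes tested were called between CFU and HSC, 24 between MkP and HSC and 44 between CFU and MkP. Against the shares of all genes given above, the lists moved in both directions: 27 of the 53 were higher and 26 lower in CFU.

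Platelet-depleted mice were compared with control mice within each population, 4 sums against 4, and values below are CPM on the TMM scale of that population's own fit. By edgeR, 0 of 10 members were called in HSC (0% of all 17146 genes tested were), 0 of 10 in CFU (0% of 15661) and 0 of 10 in MkP (0.0108% of 18512). At an unadjusted p under 0.05 there were 2 of 10 members in HSC (8.56% of all genes), 2 in CFU (11.9%) and 4 in MkP (13.7%). The members' median log2 difference was -0.16 in HSC, -0.04 in CFU and -0.07 in MkP, beside medians over all genes between 0.00 and 0.01. DESeq2 called 0 members in HSC (1.56% of all genes), 1 in CFU (3.01%) and 2 in MkP (5.16%), and edgeR on genes of at least 8 CPM called 1 in MkP (1.59%).

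Sod1 had the largest differences from control of the 10 members in each population, without passing the main test. In HSC it stood at 509.9, 712, 468 and 758 CPM in control mice 1 to 4 and at 379.5, 390.1, 413 and 514 CPM in depleted mice 1 to 4. In MkP the values were 549, 888, 728 and 785 CPM in control and 523, 585, 527 and 535 CPM in depleted mice. In CFU they were 837, 1464, 1078 and 1299 CPM in control and 824, 883, 746 and 913 CPM in depleted mice.

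Thus 3 of 4 depleted mice were below all controls for Sod1 in HSC and in MkP and 2 of 4 in CFU, and the groups overlapped each time. In HSC depleted mouse 4, at 514 CPM, stood above control mice 1 and 3, at 509.9 and 468 CPM. Its sum also held 410.5 CPM of neutrophil markers, whose part was not tested. Without this mouse the difference was -0.63 (edgeR adjusted p = 0.491). The log2 difference was -0.53 ± 0.17 in HSC (edgeR adjusted p = 0.465), -0.44 ± 0.13 in MkP (edgeR adjusted p = 0.205) and -0.48 ± 0.15 in CFU (edgeR adjusted p = 0.311). DESeq2 called Sod1 in MkP (adjusted p = 0.0167) and CFU (adjusted p = 0.0472), and edgeR on genes of at least 8 CPM called it in MkP (adjusted p = 0.0421). Control mice varied more than depleted mice, with an SD of 142 CPM against 28.9 CPM in MkP. The sums of 1 mouse in the 3 populations come from the same animal, so these are not 3 separate observations.

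Prdx4 was the 1 member of 10 whose control and depleted mice did not overlap, in MkP, where 9.44% of all genes did not overlap; no member was so in HSC (8.06% of genes) or CFU (8.48%). Its MkP values were 100.2, 97.3, 79.4 and 94.9 CPM in control and 71.8, 73.1, 72.9 and 77.8 CPM in depleted mice (log2 -0.33 ± 0.09, edgeR adjusted p = 0.190). DESeq2 called this difference (adjusted p = 0.0133), while it shrank to -0.07 once GC and length trends had been removed. In HSC the Prdx4 difference was -0.36 ± 0.14 (edgeR adjusted p = 0.541).

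Prdx4 was also the 1 member whose detection in single cells separated the treatments, in HSC, with no share over all genes computed. In HSC it was found in 57.5%, 50.6%, 54.3% and 49.4% of cells of control mice 1 to 4 and in 47.3%, 46.8%, 40.9% and 36.2% of cells of depleted mice 1 to 4. The groups did not overlap, by a mean of -10.1 percentage points (exact permutation test, two-sided, p = 0.0286, the smallest that 4 against 4 mice can give, adjusted p = 0.429 over 30 tests). With cells of at least 5000 counts thinned to that depth the difference was -1.56 points. Detection of the other members in HSC was also lower on average in depleted mice, except for Prdx5 (1.32 points higher). Before thinning, depleted HSC held fewer detected genes per cell, at a median of 5595 against 6514.5 in control HSC. The part of this in the Prdx4 difference was not tested. Of these 30 tests of detection, 0 passed after adjustment.

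Cat and Prdx6 stood higher in depleted mice in 1 population each at an unadjusted p under 0.05. Cat in MkP was 130.2, 118, 137 and 142 CPM in control and 137, 164, 165 and 159 CPM in depleted mice, above all controls in 3 of 4 (log2 0.25 ± 0.09, edgeR adjusted p = 0.276). Prdx6 in CFU was 1041, 1136, 1120.1 and 928 CPM in control and 1119.6, 1326, 1201 and 1163 CPM in depleted mice, above all controls in 3 of 4 (log2 0.19 ± 0.08, edgeR adjusted p = 0.391).

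Prdx1 in MkP was 582, 650.3, 665 and 605 CPM in control and 528, 541, 603 and 545 CPM in depleted mice, below all controls in 3 of 4 (log2 -0.17 ± 0.07, edgeR adjusted p = 0.307). Prdx2 was the member with the largest difference between CFU and the other populations, though not the only one without overlap. It stood at 1789, 1919, 1779 and 2115 CPM in control and 1681, 1826, 1587 and 1903 CPM in depleted CFU. These overlapped (log2 -0.12 ± 0.07, edgeR adjusted p = 0.568), as did the Prdx2 values in HSC (-0.02 ± 0.10, edgeR adjusted p = 0.979) and MkP (-0.11 ± 0.07, edgeR adjusted p = 0.576). The remaining members, Prdx3, Prdx5, Gpx1 and Sod2, differed by -0.22 to 0.07 on the log2 scale, with an edgeR adjusted p of 0.652 or more.

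**Figure D5:**
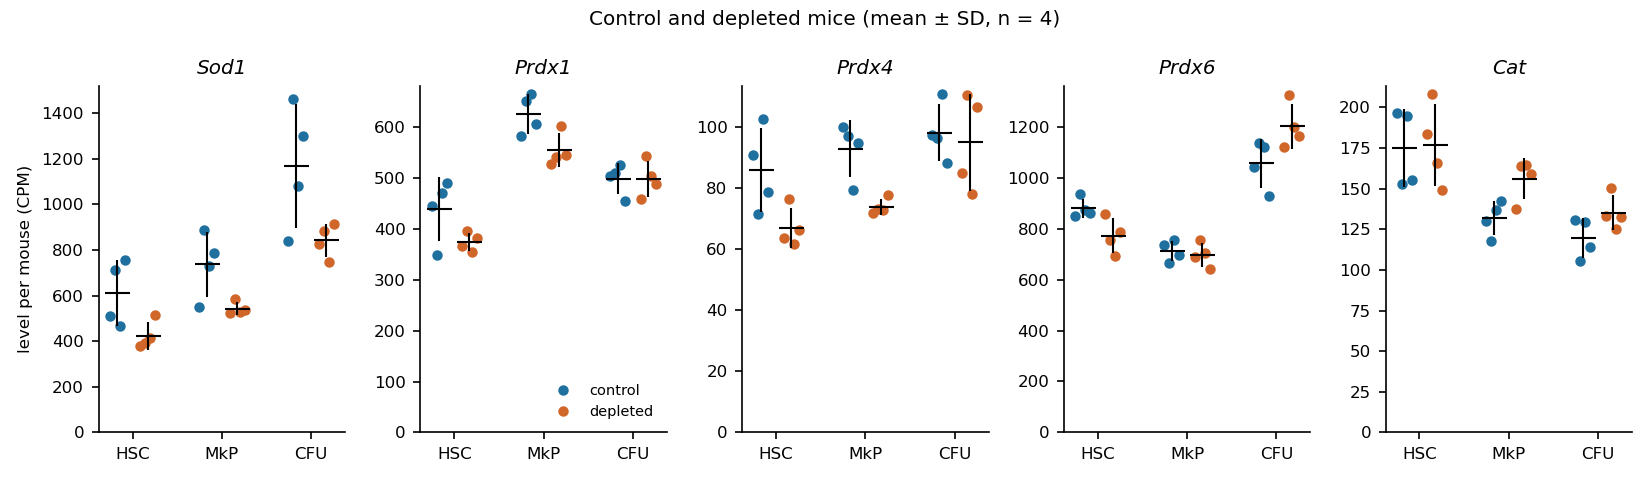
Level in CPM (linear axes from 0, TMM scale of each population's own fit) of the 5 members with an unadjusted p under 0.05 in at least 1 population, in control and depleted mice; points are mice and bars are mean ± SD, n = 4. Depleted points of Sod1 lie low in each population but overlap the controls, and only the Prdx4 points in MkP do not overlap.

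Of the surrounding genes, 0 of 60 tested in HSC, 0 of 56 in CFU and 0 of 61 in MkP passed the main edgeR test between treatments. Of the genes tested, 7, 4 and 11 had an unadjusted p under 0.05, beside the 8.56%, 11.9% and 13.7% of all genes given above. Over 17 alternatives the calls reached at most 2 in HSC, 2 in CFU and 5 in MkP. Hmox1 had the lowest p of its list in all 3 populations: its mean was 89.03 CPM in control and 22.2 CPM in depleted HSC (log2 -2.0 ± 0.26, edgeR adjusted p = 0.160), 86.9 and 35.5 CPM in MkP (-1.29 ± 0.36, edgeR adjusted p = 0.197) and 5.29 and 0.527 CPM in CFU (-3.32 ± 1.33, edgeR adjusted p = 0.378). The 5 macrophage markers summed to 22.3 to 76.9 CPM in control and 9.98 to 14.03 CPM in depleted HSC, and to 41.7 to 76.3 CPM and 25.5 to 72.3 CPM in MkP; their part in the Hmox1 values was not tested. In MkP, Txn1 stood at 413 CPM in control and 341 CPM in depleted mice (log2 -0.28 ± 0.07, edgeR adjusted p = 0.176), and Gsr, the glutathione reductase gene, at 55.6 and 70.8 CPM (0.35 ± 0.09, edgeR adjusted p = 0.187). In CFU, Gclm, the modifier subunit of glutathione synthesis, stood at 359 and 462 CPM (0.37 ± 0.10, edgeR adjusted p = 0.279) and Sephs2 at 133 and 170.4 CPM (0.36 ± 0.09, edgeR adjusted p = 0.262).

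Some cell markers moved with treatment. In CFU, erythroid markers summed to between 13374 and 15217 CPM in control and between 15834 and 18399 CPM in depleted mice, without overlap. In HSC the myeloid markers also separated the groups, at 208 to 241 CPM in control and 249.5 to 324 CPM in depleted mice. The megakaryocyte markers in MkP were 3749 to 5567 CPM in control and 3226 to 3865 CPM in depleted mice. Their part in the differences of Sod1, Prdx4, Prdx6 and Cat was not tested.

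A fit of the 6 groups tested whether the treatment difference was unequal between populations, through interaction terms. By edgeR, 0 of 10 members were called for MkP against HSC (0.0144% of all genes), for CFU against HSC (0%) or for CFU against MkP (0%), with 0, 1 and 1 of 10 members at an unadjusted p under 0.05, beside 6.05%, 9.05% and 5.89% of all genes. DESeq2 also called 0 members in each, among 1.51%, 2.82% and 2.19% of all genes. The lowest p belonged to Prdx6 in CFU against HSC, where its treatment difference was 0.42 ± 0.12 higher on the log2 scale in CFU (edgeR adjusted p = 0.279). Prdx6 stood at 850.2, 935, 874 and 862 CPM in control HSC and 856, 755.5, 691 and 786 CPM in depleted HSC, the opposite order of its means in CFU.

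Reads of near copies were few. Prdx2-ps1 held 0.263% as many counts as Prdx2 over the 24 sums and Prdx6b 0.0200% as many as Prdx6, while Prdx1-ps and Prdx2-ps2 had 0 counts. How reads that match a gene and its copy were counted is not given in the sources used here, so levels of Prdx1, Prdx2 and Prdx6 could include some of them.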

How the data were processed

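The authors deposited a matrix of raw counts per gene for 3070 wells; per the submitters' processing notes the tools were Trim Galore 0.5, STAR 2.6.0 and HTSeq 0.6.1. Genome build, annotation and strand setting: not given in the sources used here. Among the matrix columns, 3069 matched a sample title and 1 was not used. Counts of symbols on several rows were added. Wells with at least 20000 counts and 1000 genes and at most 20% mitochondrial counts were kept, which removed 401; no doublet caller was run, and 73 kept wells held over 10000 genes.

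Counts were summed per mouse and population, filtered with filterByExpr, scaled by TMM and tested with edgeR 4.0.16 (R 4.3.3): populations over all 24 sums with treatment as covariate, treatment within each population. Genes with an adjusted p under 0.05 were called. The edgeR steps were also run on simulated counts, without mouse pairing and with planted fold changes larger than the members' treatment differences. That run therefore does not cover treatment differences of the size seen here. The standard error is the log2 fold change divided by the square root of F. Reads are amplified copies, so counting error does not cover all technical error. Mice are the replicates, and p-values rest on the title code naming them. Equal numbers in different populations mark the same mouse and so pair the sums; their deviations correlated at 0.0192 to 0.0794 over 24 pairs.

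Exon unions came from GENCODE M21. All members are named, with at most 2 called genes per direction and list, or the lowest p where none was called, and the 3 most alike genes. Members and lists were chosen with earlier results of these data known. Alternatives were DESeq2 1.42.0, filters, GC and length trends, thinning, the mouse as a block, other subsets, and leaving out each mouse. One gene that the naming rule picked is not reported here.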

Additional observations from a re-analysis of the deposited data

Results flagged for a closer look

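In 14 of 126 groups of 4 mice that were examined (levels and detection of the 10 members and the Prdx2 share, by population and treatment), 1 mouse stood far from the other 3, with a gap over 0.829 of the group's range. For continuous, normally distributed values chance gives this in about 1 group in 20, and groups of the same mice are not independent.

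For levels, on the scale of each population's own fit, Prdx3 in control mouse 3 was 514 CPM in CFU, below the 559.7 to 566.4 CPM of the other controls, and 216 CPM in MkP, above their 201 to 203 CPM. The same mouse had the 3740.5 CPM of neutrophil markers in CFU; their part was not tested. The Prdx2 share of the peroxiredoxin level in HSC was 20.2% in control mouse 4, against 18.3% to 18.5% in the other controls.

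For detection after thinning, Prdx3 was found in 72.04% of HSC of depleted mouse 1 (others 61.4% to 62.8%) and Prdx4 in 66.25% of CFU of depleted mouse 3 (others 81.6% to 82.8%). The other 9 lay near the ceiling, where a few cells decide the value and the chance rate given above does not apply. Prdx6 was at 100% in HSC of control mouse 3 (others 97.5% to 97.7%) and Gpx1 at 98.9% in HSC of depleted mouse 2. In CFU, control mouse 3 was at 98.6% for Prdx1 and 97.3% for Prdx2, and depleted mouse 4 at 100% for Prdx1 and 98.9% for Prdx2. In MkP, control mouse 3 was at 98.7% for Gpx1 and 99.4% for Sod1, and depleted mouse 3 at 99.4% for Sod1.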

How the results depend on the processing

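Counts of members called between populations stayed within 1.5 times of the main count under all 19 alternatives: 9 to 10 for CFU against HSC, 5 to 8 for MkP against HSC and 8 to 9 for CFU against MkP. With the mouse as a block the counts were 9, 7 and 8, and the block changed no member's call; with GC and length trends also removed they were 9, 7 and 9, the added call being Cat (log2 0.15, adjusted p = 0.0461). Between treatments the count of 0 became 1 in CFU and 2 in MkP with DESeq2, and 1 in MkP among genes of at least 8 CPM. For the surrounding genes, the count of 0 moved in 3 of 17 alternatives in HSC, 1 in CFU and 3 in MkP, to at most 2, 2 and 5. The Prdx2 share in MkP against HSC lost its call with the longest transcript as length (-1.16 points) or no length scaling (-0.74 points), and with any 1 of 6 of the 8 mice left out (adjusted p 0.0662 to 0.0827), where all 8 omissions gave -1.87 to -1.30 points. Detection called 12 to 21 of 30 comparisons of populations. Over all genes, treatment calls were 0 in HSC, 0 in CFU and 2 in MkP by edgeR, 6, 37 and 147 among genes of at least 8 CPM, 42, 8 and 71 with cells thinned, 47, 51 and 1 in the fit of all 24 sums, and 267, 472 and 955 by DESeq2; the other edgeR fits gave 0, 0 and 0 to 2. Interaction calls were 3, 0 and 0 by edgeR (MkP against HSC, CFU against HSC, CFU against MkP), 3, 1 and 1 among genes of at least 8 CPM, and 315, 587 and 457 by DESeq2; the other edgeR fits gave 0 to 4.

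Small log2 differences changed sign under some settings; those in 1 population are depleted against control. DESeq2 gave 0.0043 for Prdx2 in HSC, and -0.0059 for Sod2 in MkP. The fit of all 24 sums gave 0.0103 for Prdx3, 0.0166 for Prdx4, 0.0297 for Gpx1 in CFU, and -0.012 for Sod2 in MkP. Thinned cells gave -0.0254 for Prdx1, -0.0293 for Cat between CFU and MkP, and 0.1561 for Sod2 in HSC, and -0.1353 for Prdx1, -0.018 for Sod2 in CFU, and -0.0077 for Prdx5, -0.0605 for Gpx1, -0.1137 for Sod2 in MkP. A mean of at least 8 CPM gave -0.049 for Prdx1 between CFU and MkP, and -0.0244 for Cat in HSC, and -0.0517 for Prdx1, -0.0273 for Sod2 in CFU, and -0.0412 for Gpx1, -0.0597 for Sod2 in MkP. Removing GC and length trends gave 0.013 for Prdx2, -0.0528 for Cat, 0.025 for Gpx1 in HSC, and -0.0652 for Prdx1, 0.0087 for Prdx3, 0.1685 for Prdx4, 0.0622 for Gpx1, -0.0739 for Sod2 in CFU, and 0.0518 for Prdx3, -0.001 for Prdx5, -0.1173 for Sod2 in MkP. Leaving out wells of over 10000 genes gave -0.0085 for Prdx1 in CFU, and -0.0104 for Sod2 in MkP. The cause was not tested.

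Leaving out 1 mouse at a time gave -0.0739 to 0.0455 for Prdx2, -0.0467 to 0.0071 for Prdx5, -0.0573 to 0.0885 for Cat, -0.213 to 0.0333 for Gpx1 in HSC. Leaving out 1 mouse at a time gave -0.0504 to 0.0416 for Prdx1, -0.1367 to 0.0366 for Prdx4, -0.1398 to 0.1159 for Prdx5, -0.0087 to 0.0618 for Sod2 in CFU. Leaving out 1 mouse at a time gave -0.0722 to 0.007 for Prdx6, -0.0373 to 0.0913 for Gpx1, -0.0331 to 0.0371 for Sod2 in MkP.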

Other observations

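Some partner genes of these enzymes separated the progenitor populations from each other. G6pdx, which opens the pentose phosphate pathway and supplies NADPH, stood at 85.7 CPM in MkP and 239 CPM in CFU (log2 1.48 ± 0.09, edgeR adjusted p = 1.53e-12), while Idh1, the cytosolic isocitrate dehydrogenase gene, fell from 44.2 to 20.3 CPM (-1.13 ± 0.17, edgeR adjusted p = 3.64e-06). Ccs, the copper chaperone that loads Sod1, was higher in CFU at 90.1 CPM against 54.1 CPM in MkP (0.74 ± 0.12, edgeR adjusted p = 1.60e-05). Sesn2, a sestrin gene, was lower in MkP, at 10.8 CPM, than in HSC, at 24.2 CPM (-1.16 ± 0.20, edgeR adjusted p = 8.85e-05), and higher in CFU, at 27.2 CPM, than in MkP (1.33 ± 0.20, edgeR adjusted p = 5.29e-06). Sesn1 was lower in MkP than in HSC as well, at 66.4 against 150.04 CPM (-1.18 ± 0.12, edgeR adjusted p = 1.53e-07).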
